A study of Mus musculus with 40 samples.

Results

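Gene expression was compared between Dnmt3a knockout (KO) and wild-type (WT) common myeloid and granulocyte-macrophage progenitors (CMP/GMP) of mouse bone marrow. The libraries were taken by their labelled cell type and genotype, which gave 4 KO and 4 WT libraries of the 40 in the series. The KO mice were Dnmt3a f/f with Mx1-Cre. Their floxed gene is cut by a recombinase whose promoter responds to interferon in haematopoietic and also in other cells. The treatment that induced the recombinase, the exons removed, the age of the mice and whether WT mice carried the recombinase are not stated in the sources used here. The labels place CMP and GMP in 1 sample, so the proportion of each cannot be read from them. No animals are named, so every p-value measures the spread between these libraries, which may be partly technical. The series also holds long-term haematopoietic stem cells (LT-HSC), megakaryocyte-erythroid progenitors (MEP) and c-kit+ marrow cells of both genotypes, which are used here only beside the CMP/GMP values. The c-kit+ cells also include Sting knockout and Dnmt3a/Sting double knockout libraries.

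Dnmt3a adds methyl groups to unmethylated cytosines in DNA, while Dnmt1 copies existing methylation onto the new strand after replication with the help of Uhrf1. Mutations of DNMT3A are common in human clonal haematopoiesis, in which mutated stem cells expand while their progeny still fill the blood. CMP and GMP lie downstream of the stem cell. GMP give rise to granulocytes and monocytes, and the CMP gate also contains cells that can still form megakaryocytes, erythroid cells, basophils and mast cells.

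Between 33.2 and 47.7 M reads per library were assigned to genes. Levels are given as CPM, the counts of a gene scaled to a common library size, with TMM factors that correct for differences in library composition, and libraries are given in the order 1 to 4 throughout. The defining markers of myeloid progenitors were present in every library. Mpo, the myeloperoxidase of primary granules, was at 11703, 6926, 15532 and 14551 CPM in the KO libraries, and 6132, 4307, 20981 and 6389.9 in WT. Elane, the neutrophil elastase, was at 2152, 276, 2396 and 3319 CPM in the KO libraries, and 277, 215, 5439 and 185 in WT. Both were low in KO 2, WT 1, WT 2 and WT 4 and high in the other libraries, so the split crossed the genotypes. Prtn3, Ctsg, Ms4a3, Cebpa, Csf1r, Cd34 and Kit were also detected in all 8 libraries, with Cd34 at 649, 623, 669 and 531 CPM in the KO libraries, and 531, 683, 796 and 682 in WT. Here and below, the summed level of a list runs over all its genes in the count table, tested or not. That of the 15 primary granule genes was 21893, 11601, 23769 and 25510.5 CPM over the KO libraries, and 12052, 8337, 35218 and 10129 in WT, and WT 3 held the highest value of all.

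WT 2 and WT 4 were closer to each other than any other pair. Their log2 CPM values correlated with a Pearson r of 0.984 over 9800 genes, against 0.858 to 0.935 for the other 27 pairs. Their counts nevertheless differed by more than sampling noise, with a chi-square per degree of freedom of 109 against 139 to 456 for the other pairs, so they were kept as separate libraries and also summed into 1. Xist, which coats the silent X chromosome, stood at 772 to 914 CPM in KO 3, KO 4 and WT 3, and the other 5 libraries carried transcripts of the Y chromosome. Sex was therefore unequal between the groups, with 2 of 4 KO and 1 of 4 WT libraries expressing Xist, and was entered as a term in an alternative fit.

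**Figure D1:**
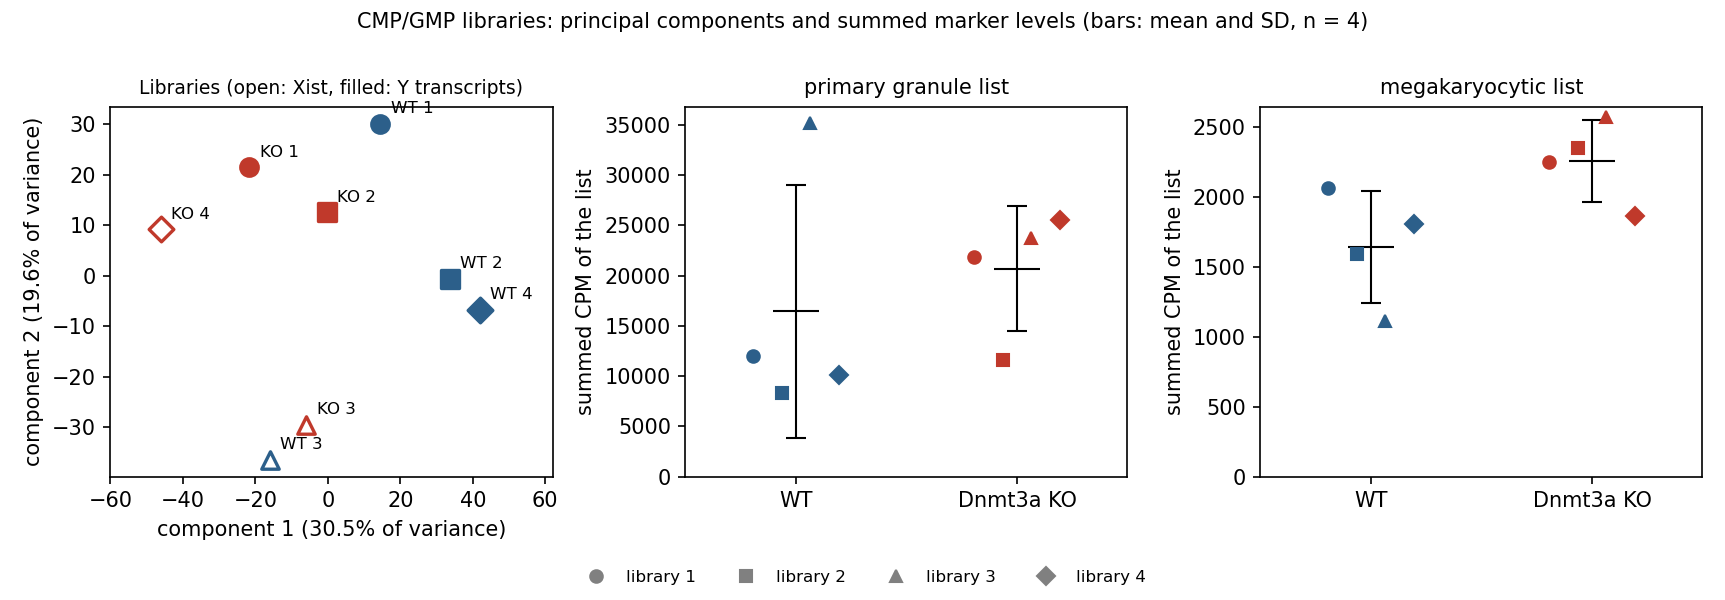
The left panel places the 8 libraries on the first 2 principal components of log2 CPM (30.5% and 19.6% of the variance, arbitrary units), with open symbols for libraries with Xist and filled symbols for libraries with Y transcripts. The other panels give the summed CPM of the primary granule and megakaryocytic lists per library with mean and SD (n = 4): the granule sums overlap widely between KO and WT, and WT 3 has the highest at 35218 CPM.

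The targeted gene was read first. Dnmt3a (chr12:3801559-3914443, GRCm38) was at 16.6, 16.6, 32.3 and 33.8 CPM in the KO libraries, and 56.8, 66.02, 50.1 and 81.2 in WT. Every KO library lay below every WT library, and transcript remained in each KO. The log2 fold change was -1.36 (SE 0.30), with a two-sided exact permutation p of 0.0286, the smallest that 4 against 4 libraries can give. Adjusted over all 13205 genes tested, p was 0.298 with edgeR's quasi-likelihood test, 0.00378 with DESeq2 and 0.0153 with limma-voom. With WT 2 and WT 4 summed, the DESeq2 adjusted p was 0.0624. DESeq2 did not call it without WT 2 (adjusted p = 0.0643) or without WT 4 (adjusted p = 0.0901). Over 27 alternatives, in which the tool, the scaling, the filter, the terms of the fit or the libraries differed, the adjusted p of Dnmt3a was below 0.05 in 9 (range 0.000256 to 0.929). Ranges given below for other genes are over the same alternatives. Tmem173, the gene of Sting, was at 132, 98.8, 146 and 115 CPM in the KO libraries, and 76.3, 92.5, 114 and 129 in WT, and the groups overlapped.

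Of the genes that maintain methylation, Dnmt1 was also lower in every KO library. Dnmt1 (chr9:20907206-20959888) was at 163, 229, 218 and 167 CPM in the KO libraries, and 385, 271, 287 and 351 in WT, and the groups did not overlap. For Dnmt1 the log2 fold change was -0.74, SE 0.18, with edgeR adjusted p = 0.305, DESeq2 adjusted p = 0.0136, range 0.00335 to 0.9 over the alternatives. With WT 2 and WT 4 summed its DESeq2 adjusted p was 0.0556. Uhrf1, which brings Dnmt1 to newly copied DNA, was at 178, 245, 303 and 177 CPM in the KO libraries, and 369, 318, 261 and 468 in WT, where KO 3 lay above WT 3. For Uhrf1 the log2 fold change was -0.65, SE 0.22, with edgeR adjusted p = 0.442, DESeq2 adjusted p = 0.151. Zbtb38, a zinc finger protein that binds methylated DNA, was at 17.6, 5.28, 23.3 and 14.8 CPM in the KO libraries, and 29.01, 24.1, 27.5 and 25.9 in WT, again without overlap. For Zbtb38 the log2 fold change was -0.80, SE 0.39, with edgeR adjusted p = 0.581, DESeq2 adjusted p = 0.435. The other de novo enzyme, Dnmt3b, was at 44.8 ± 8.33 CPM on average in KO against 38.6 ± 9.01 in WT (n = 4 each), and Tet2, which oxidises methylated cytosine, was at 20.8 ± 6.67 CPM on average in KO against 20.1 ± 5.84 in WT. Across the 19 tested genes of DNA methylation, 3 lay lower in every KO library than in every WT library and none lay higher, where 2.79% of all genes tested lay lower and 2.94% higher in this way. The 3 genes were Dnmt1, Zbtb38 and Dnmt3a itself, whose fall follows from the knockout and is no separate result about the list. The summed level of the list, which also contains Dnmt3a, was 1599 to 1783 CPM in KO and 1939 to 2212 CPM in WT. Dnmt1 and Uhrf1 are most abundant in dividing cells, and the replication genes described below were lower in the same libraries; their part in the Dnmt1 and Uhrf1 levels was not tested.

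**Figure D2:**
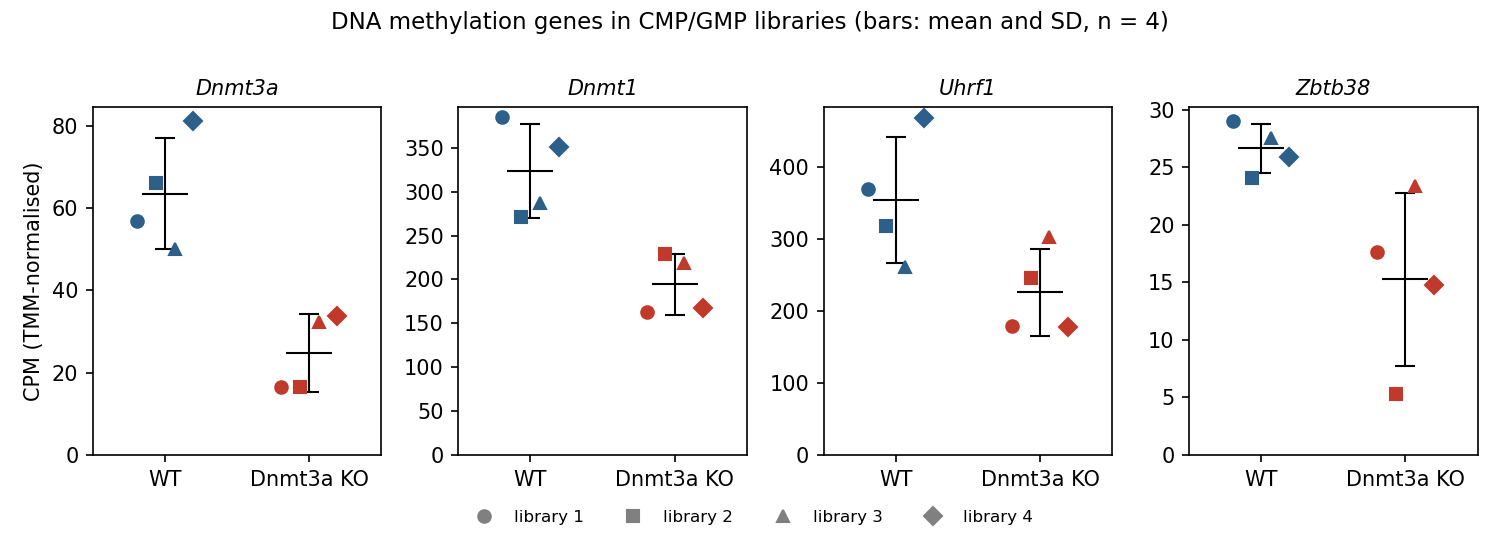
CPM of 4 DNA methylation genes in each WT (blue) and KO (red) library, with the symbol giving the library number and bars the mean and SD (n = 4). Dnmt3a, Dnmt1 and Zbtb38 do not overlap between the groups, and Uhrf1 does.

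Over all genes, edgeR's quasi-likelihood test called none of the 13205 at an adjusted p under 0.05 (0% of genes), and 1196 had an unadjusted p under 0.05, of which 617 were higher (4.67%) and 579 lower (4.38%) in KO. A positive log2 fold change was seen for 6705 of the 13205. DESeq2 called 160 genes (1.21%), 98 higher (0.742%) and 62 lower (0.47%), and limma-voom with library weights called 475 (3.6%), 358 higher (2.71%) and 117 lower (0.886%). Of the DESeq2 calls, 133 were also voom calls, all in the same direction, which is 83.1% of the DESeq2 list and 28.0% of the voom list. With WT 2 and WT 4 summed, edgeR again called 0 genes and DESeq2 called 34, of which 28 were among the 160. With 1 library left out, DESeq2 called from 29 genes (without WT 4) and 35 (without WT 2) to 437 (without KO 3) and 628 (without WT 3), and edgeR called 0 to 12. Because edgeR called none, the genes below are named from the DESeq2 calls, a choice made after the values were seen, and they are described as higher or lower with the result of each tool. In 123 of the 160 the groups did not overlap, against 2.94% of all genes with KO higher and 2.79% with KO lower. The calls and this count come from the same libraries, so the count is no separate support for the calls. Called by DESeq2 in each of its 11 settings (all libraries, summed, with a term for sex, and without each library in turn) were 21 genes, 16 higher and 5 lower.

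The gene list with the most members higher in every KO library was the megakaryocytic one. Of its 24 tested genes, 21 had a positive log2 fold change and 6 lay higher in every KO library than in every WT library (Pf4, Treml1, F2rl2, Gp9, Cd9 and Clec1b), against 2.94% of all genes, while none lay lower. The median log2 fold change of the list was 0.60 (0.74 with a term for sex, 0.57 with WT 2 and WT 4 summed), against 0.0091 over all genes tested. DESeq2 called 4 of the 24 (Pf4, Treml1, F2rl2 and Gp9), where it called 0.742% of all genes higher. Voom called 8 higher, where it called 2.71% of all genes higher. To show the sequence in front of these 4 genes, the 250 bases before the annotated start of each are printed here 5′ to 3′ on the coding strand from the RefSeq table of GRCm38.p6. All 4 lie on the plus strand, at chr5:90772185-90772434 for Pf4, chr17:48359666-48359915 for Treml1, chr13:95696670-95696919 for F2rl2 and chr6:87777820-87778069 for Gp9, where the listed start lies inside the annotated span of the gene. Capitals mark matches on either strand to the GATA motif (AGATAA or TGATAA) and to the ETS motif (AGGAAG or CGGAAG), the letters bound by families of factors known to act in megakaryocytes.
Pf4: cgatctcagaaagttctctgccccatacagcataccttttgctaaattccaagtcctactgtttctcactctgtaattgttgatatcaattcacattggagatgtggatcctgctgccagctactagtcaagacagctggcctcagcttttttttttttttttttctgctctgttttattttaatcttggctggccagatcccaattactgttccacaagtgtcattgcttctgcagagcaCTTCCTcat
Treml1: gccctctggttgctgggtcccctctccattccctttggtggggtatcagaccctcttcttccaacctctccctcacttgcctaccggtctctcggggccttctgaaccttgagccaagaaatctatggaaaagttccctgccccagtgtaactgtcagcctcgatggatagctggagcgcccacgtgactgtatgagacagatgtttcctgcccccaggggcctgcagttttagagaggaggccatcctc
F2rl2: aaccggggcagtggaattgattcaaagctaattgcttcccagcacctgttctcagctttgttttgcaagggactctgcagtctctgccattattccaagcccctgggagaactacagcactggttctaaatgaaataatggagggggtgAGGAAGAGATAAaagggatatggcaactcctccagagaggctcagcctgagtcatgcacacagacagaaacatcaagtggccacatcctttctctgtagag
Gp9: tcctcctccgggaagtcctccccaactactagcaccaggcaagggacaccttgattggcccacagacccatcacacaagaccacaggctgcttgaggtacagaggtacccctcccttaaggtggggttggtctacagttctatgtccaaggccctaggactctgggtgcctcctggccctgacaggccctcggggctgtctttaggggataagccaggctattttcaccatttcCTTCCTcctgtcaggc
The F2rl2 window holds an ETS match directly followed by a GATA match, which begin 101 and 95 bases before the start. Pf4 has an ETS match 9 bases and Gp9 one 16 bases before the start, and Treml1 has neither motif in this window. Of the 27025 promoters in the table, 17.0% hold a GATA match and 39.0% an ETS match in the same 250 bases. The share over the megakaryocytic list is not given, since only 18 of its 24 tested genes had an entry. CpG dinucleotides, the target of Dnmt3a, number 1 in the Pf4 window, 5 in Treml1, 1 in F2rl2 and 2 in Gp9, with a median of 6 over the table. These 4 genes were picked by their calls, so the counts describe these windows only.

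Pf4 (chr5:90772435-90773383), platelet factor 4, a chemokine stored in platelet alpha granules, was at 496, 293, 616 and 545 CPM in the KO libraries, and 246, 218, 169 and 132 in WT. The lowest KO library exceeded the highest WT library. For Pf4 the log2 fold change was 1.35, SE 0.25, with edgeR adjusted p = 0.285, DESeq2 adjusted p = 8.00e-05, range 6.05e-07 to 0.929 over the alternatives. It was called in each of the 11 DESeq2 settings, with an adjusted p of 0.00104 when WT 2 and WT 4 were summed. Treml1 (chr17:48359916-48367176), a receptor of platelet alpha granules, was at 51.8, 30.7, 30.4 and 13.4 CPM in the KO libraries, and 7.75, 5.12, 12.9 and 5.67 in WT, and the lowest KO value, in KO 4, was close to the WT 3 value. For Treml1 the log2 fold change was 2.01, SE 0.44, with edgeR adjusted p = 0.298, DESeq2 adjusted p = 0.00307, or 0.0525 with WT 2 and WT 4 summed, range 3.13e-05 to 1 over the alternatives. F2rl2 (chr13:95696920-95702768), a thrombin receptor subunit of mouse platelets, was at 47.2, 40.2, 17.3 and 29.6 CPM in the KO libraries, and 13.6, 9.69, 2.48 and 14.6 in WT. For F2rl2 the log2 fold change was 1.73, SE 0.50, with edgeR adjusted p = 0.368, DESeq2 adjusted p = 0.0406, or 0.117 with WT 2 and WT 4 summed, range 2.75e-05 to 0.929 over the alternatives. Gp9 (chr6:87776131-87779786), a subunit of the von Willebrand factor receptor, was at 51.6, 43.4, 51.4 and 40.5 CPM in the KO libraries, and 35.8, 18.1, 21.5 and 16.7 in WT. For Gp9 the log2 fold change was 1.02, SE 0.28, with edgeR adjusted p = 0.352, DESeq2 adjusted p = 0.0499, or 0.308 with WT 2 and WT 4 summed, range 0.00016 to 1 over the alternatives. Of the 4, Pf4 was thus the 1 gene still called by DESeq2 after summing.

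Cd9, a tetraspanin of platelets and of stem and progenitor cells, was at 185, 176, 194 and 158 CPM in the KO libraries, and 149, 119, 91.03 and 104 in WT. For Cd9 the log2 fold change was 0.62, SE 0.18, with edgeR adjusted p = 0.364, DESeq2 adjusted p = 0.0797. Clec1b, the podoplanin receptor CLEC-2, was at 7.39, 2.24, 4.53 and 6.31 CPM in the KO libraries, and 1.04, 0, 1.03 and 0 in WT, so it was near the limit of detection in WT. Other well known genes of the list overlapped between the groups. Itga2b, the integrin subunit CD41, was at 181, 245, 291 and 121 CPM in the KO libraries, and 303, 221, 107 and 354 in WT. Vwf, the von Willebrand factor, was at 18.6, 24.6, 40.6 and 19.6 CPM in the KO libraries, and 10.8, 17.2, 11.8 and 21.2 in WT. For Vwf the log2 fold change was 0.76, SE 0.35, with edgeR adjusted p = 0.545, DESeq2 adjusted p = 0.431. The summed level of the list stood at 2252, 2353, 2574 and 1869.6 CPM over the KO libraries, and 2065, 1591, 1114 and 1809 in WT, with KO 4 below WT 1. In bulk libraries a larger number of megakaryocyte-primed cells and more RNA per cell cannot be told apart. The erythroid list of 31 tested genes had 19 positive log2 fold changes and a median of 0.08, and 2 genes, Alas2 and Nfe2, lay higher without overlap. Over all genes tested 6705 of 13205 were positive and 2.94% lay higher in this way. Car1 and Car2, carbonic anhydrases of early erythroid cells, were at 402 ± 66.2 CPM on average in KO against 607 ± 263 in WT and at 688 ± 129 CPM on average in KO against 708 ± 265 in WT respectively (n = 4 each).

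**Figure D3:**
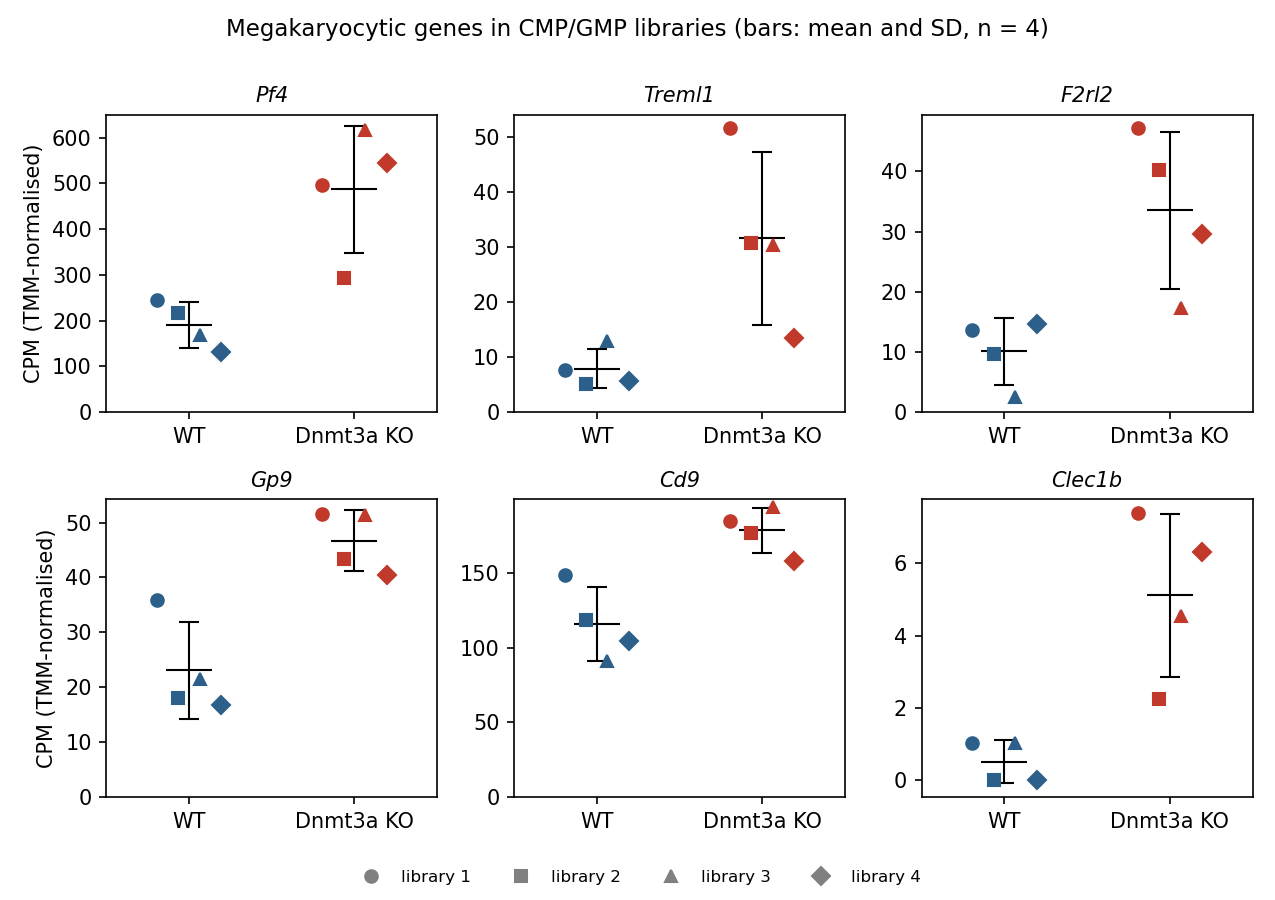
CPM of the 6 megakaryocytic genes whose groups do not overlap, in each WT (blue) and KO (red) library, with bars for the mean and SD (n = 4). Every KO point lies above every WT point in each panel, and Pf4 is the most abundant at 293 to 616 CPM in KO.

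Stem cell genes and regulators of myeloid fate included several with higher levels in KO. Gata2 (chr6:88193891-88207032), a transcription factor of stem cells, mast cells and early megakaryocytes, was at 345, 492, 373 and 316 CPM in the KO libraries, and 219, 268, 235 and 275 in WT, without overlap. For Gata2 the log2 fold change was 0.62, SE 0.17, with edgeR adjusted p = 0.352, DESeq2 adjusted p = 0.0552. Lmo2 (chr2:103957903-103981878), an adaptor that joins GATA factors and Tal1 on DNA, was at 261, 187, 149 and 400.3 CPM in the KO libraries, and 161, 84.6, 82.2 and 82.99 in WT, where WT 1 lay above KO 3. For Lmo2 the log2 fold change was 1.28, SE 0.32, with edgeR adjusted p = 0.305, DESeq2 adjusted p = 0.00782, or 0.0814 with WT 2 and WT 4 summed, range 0.000116 to 0.882 over the alternatives. Slamf1 (chr1:171767131-171801184), the surface protein CD150 of stem cells and megakaryocyte-primed progenitors, was at 13.1, 2.82, 26.95 and 6.25 CPM in the KO libraries, and 1.23, 1.04, 3.54 and 1.62 in WT, where KO 2 lay below WT 3. For Slamf1 the log2 fold change was 2.73, SE 0.73, with edgeR adjusted p = 0.345, DESeq2 adjusted p = 0.0185, or 0.123 with WT 2 and WT 4 summed, range 0.000729 to 0.9 over the alternatives. Among the 36 tested stem cell genes, 25 had a positive log2 fold change (6705 of 13205 over all genes) and the median was 0.30. DESeq2 called Lmo2 and Slamf1 of them, against 0.742% of all genes called higher, and 1 of the 36, Gata2, lay higher without overlap, against 2.94%. The summed level of the list was 2737 to 3201 CPM in KO and 2379.8 to 2710.2 CPM in WT, without overlap. Kit, the stem cell factor receptor, was at 236, 259, 329.5 and 262 CPM in the KO libraries, and 182, 218, 302 and 251 in WT and overlapped.

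Spi1 (chr2:91082374-91115759) encodes PU.1, the transcription factor that drives granulocyte and monocyte fate and in excess blocks the erythroid one. It was at 325, 202, 169 and 407 CPM in the KO libraries, and 46.8, 40.4, 158 and 51.8 in WT. KO 3 and WT 3 were nearly equal, while the other 3 WT libraries were below 52 CPM. For Spi1 the log2 fold change was 1.89, SE 0.44, with edgeR adjusted p = 0.305, DESeq2 adjusted p = 0.048, or 0.368 with WT 2 and WT 4 summed, range 1.89e-15 to 0.9 over the alternatives. Without WT 3, the library with the highest granule and monocyte gene levels, edgeR called 12 genes, and Spi1 was one of them (log2 fold change 2.58, edgeR adjusted p = 0.0409). Rbm38 (chr2:173021891-173034734), an RNA-binding protein and p53 target, was at 525, 338, 235 and 425 CPM in the KO libraries, and 114, 99.3, 190.4 and 111 in WT, and it was also among those 12. For Rbm38 the log2 fold change was 1.56, SE 0.27, with edgeR adjusted p = 0.285, DESeq2 adjusted p = 2.08e-05, or 0.00104 with WT 2 and WT 4 summed. Kcnn4 (chr7:24369826-24385212), a calcium-activated potassium channel of blood cells, was at 123, 133, 109.8 and 198 CPM in the KO libraries, and 66.9, 56.5, 55.2 and 64.01 in WT. For Kcnn4 the log2 fold change was 1.22, SE 0.20, with edgeR adjusted p = 0.285, DESeq2 adjusted p = 6.21e-05, or 0.00122 with WT 2 and WT 4 summed. The groups did not overlap for Kcnn4, and it was called in each DESeq2 setting. Zyx, zyxin of focal adhesions, was at 389, 319.8, 260.3 and 397 CPM in the KO libraries, and 190.4, 149.7, 219 and 148 in WT. For Zyx the log2 fold change was 0.95, SE 0.19, with edgeR adjusted p = 0.285, DESeq2 adjusted p = 0.00126, or 0.0296 with WT 2 and WT 4 summed. Rbm38, Kcnn4, Zyx and the other genes described as called in each setting were chosen after their values were seen.

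The next genes were among those with the largest positive log2 fold changes in the DESeq2 calls of at least 5 CPM whose groups did not overlap. Chchd10 (chr10:75933130-75937750), a protein of the mitochondrial intermembrane space, was at 30.1, 26.2, 10.2 and 83.2 CPM in the KO libraries, and 4.99, 4.64, 5.81 and 4.001 in WT. For Chchd10 the log2 fold change was 2.94, SE 0.54, with edgeR adjusted p = 0.285, DESeq2 adjusted p = 2.18e-05, or 0.00104 with WT 2 and WT 4 summed, range 1.24e-09 to 0.882 over the alternatives. Clasrp (chr7:19581038-19604517), a serine/arginine-rich protein linked to splicing, was at 22.5, 28.6, 21.001 and 57.1 CPM in the KO libraries, and 9.07, 5.08, 5.93 and 4.62 in WT. For Clasrp the log2 fold change was 2.39, SE 0.40, with edgeR adjusted p = 0.285, DESeq2 adjusted p = 2.18e-05, or 0.00104 with WT 2 and WT 4 summed, range 2.02e-06 to 0.882 over the alternatives. Both were called in each of the 11 DESeq2 settings. Mrps24 (chr11:5703982-5707701), a protein of the small mitochondrial ribosomal subunit, was at 40.6, 39.3, 17.8 and 141 CPM in the KO libraries, and 12.01, 12.5, 17.7 and 8.93 in WT. For Mrps24 the log2 fold change was 2.22, SE 0.54, with edgeR adjusted p = 0.305, DESeq2 adjusted p = 0.00288, or 0.039 with WT 2 and WT 4 summed, range 1.37e-05 to 0.882 over the alternatives. Ndnl2 (chr7:64871682-64873040), a subunit of the Smc5/6 complex, was at 21.4, 21.3, 11.2 and 85.6 CPM in the KO libraries, and 9.37, 3.95, 7.05 and 4.001 in WT. For Ndnl2 the log2 fold change was 2.52, SE 0.60, with edgeR adjusted p = 0.305, DESeq2 adjusted p = 0.00288, or 0.045 with WT 2 and WT 4 summed, range 7.68e-05 to 0.882 over the alternatives. In all 4 genes KO 4 was the highest library, and KO 3 lay nearest to WT.

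The same shape was seen in other named genes. Gfer, a sulfhydryl oxidase of mitochondria, was at 14.9, 14.4, 11.8 and 54.5 CPM in the KO libraries, and 7.72, 4.78, 9.899 and 2.62 in WT. For Gfer the log2 fold change was 1.93, DESeq2 adjusted p = 0.0485, range 0.00718 to 0.9 over the alternatives. Fam98c was at 8.503, 4.896, 2.31 and 35.9 CPM in the KO libraries, and 1.62, 0.645, 2.03 and 1.05 in WT. For Fam98c the log2 fold change was 3.27, DESeq2 adjusted p = 0.0053, range 0.00022 to 0.9 over the alternatives. Zfp444 was at 20.4, 10.5, 8.701 and 45.9 CPM in the KO libraries, and 8.09, 2.48, 4.601 and 1.76 in WT. For Zfp444 the log2 fold change was 2.34, DESeq2 adjusted p = 0.0198, range 0.00127 to 0.882 over the alternatives. These 3 had no DESeq2 call once WT 2 and WT 4 were summed. Ppp1r35, a regulator of centriole length, was at 29.5, 18.3, 10.5 and 46.7 CPM in the KO libraries, and 7.35, 4.26, 8.597 and 3.91 in WT. For Ppp1r35 the log2 fold change was 2.12, DESeq2 adjusted p = 0.00382, range 9.01e-05 to 0.882 over the alternatives. Ubtd2 differed in shape, at 5.61, 10.1, 12.7 and 4.79 CPM in the KO libraries, and 2.51, 1.66, 2.36 and 1.48 in WT, with KO 4 the lowest KO library. For Ubtd2 the log2 fold change was 2.05, DESeq2 adjusted p = 0.0291, range 0.0144 to 0.9 over the alternatives. KO 4 was the highest of the KO libraries in 54 of the 98 genes that DESeq2 called higher.

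Transcript length differed between the calls. The longest annotated transcript (GENCODE M21) had a median length of 2262 bases over the genes called higher by DESeq2 and 4317 bases over those called lower, against 3224 over all genes tested (95.9%, 95.2% and 91.8% of the genes matched). Their median GC content was 52.5%, 49.6% and 49.5%. The libraries themselves also differed along length. With the genes split into 5 bins by length, the bin of the shortest genes stood above that of the longest in KO 1 and KO 4, by 0.32 and 0.22 (median deviation from the gene mean, log2(CPM + 1)). In WT 1 and WT 4 the same difference was −0.29 and −0.30, while KO 2, KO 3, WT 2 and WT 3 lay between −0.085 and 0.040. The part of this shift in the named genes was not tested.

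**Figure D4:**
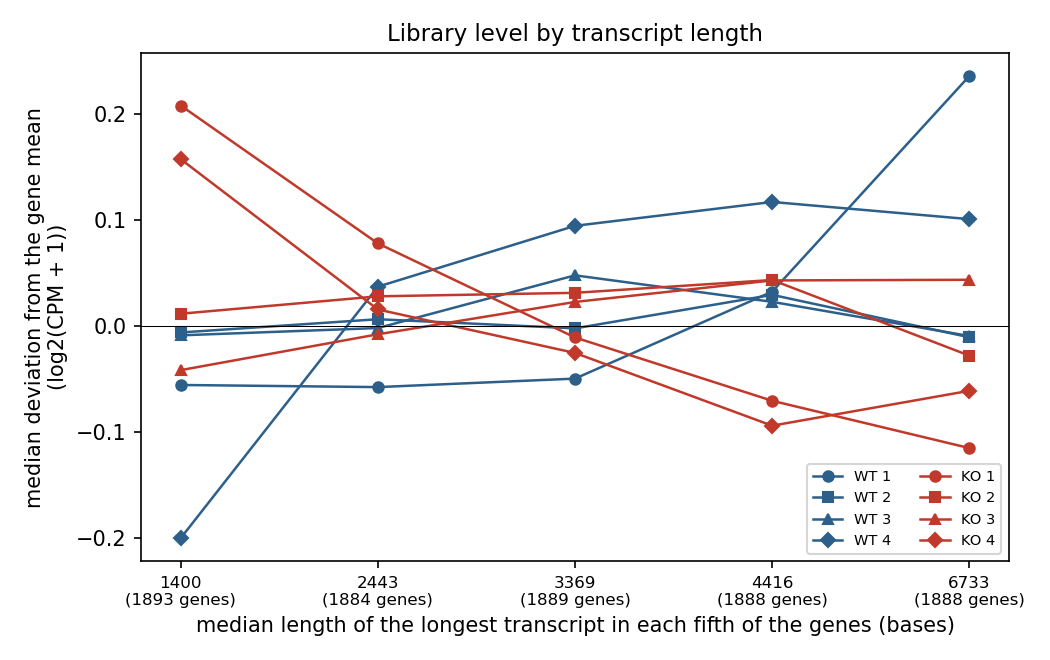
Each line is 1 library (WT blue, KO red), and the points give the median deviation of log2(CPM + 1) from the mean of all 8 libraries within 5 bins of genes by transcript length, with the median length in bases on the horizontal axis. KO 1 and KO 4 are highest for the shortest genes, at 0.21 and 0.16, and WT 4 is lowest there, at −0.20.

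Genes lower in KO covered several functions. Gpx3 (chr11:54902854-54910387), a secreted glutathione peroxidase, was at 1.81, 1.53, 10.03 and 1.94 CPM in the KO libraries, and 15.4, 22.5, 23.8 and 27.1 in WT. For Gpx3 the log2 fold change was -2.53, SE 0.62, with edgeR adjusted p = 0.305, DESeq2 adjusted p = 0.00456, or 0.0716 with WT 2 and WT 4 summed, range 4.19e-16 to 1 over the alternatives. KO 3 stood apart from the other KO libraries, and without it edgeR called Gpx3 alone (log2 fold change −3.65, edgeR adjusted p = 0.0329). Csnk2a1 (chr2:152226535-152281856), the catalytic subunit of casein kinase 2, was at 18.5, 28.2, 21.9 and 17.8 CPM in the KO libraries, and 58.8, 55.4, 46.3 and 60.5 in WT. For Csnk2a1 the log2 fold change was -1.35, SE 0.23, with edgeR adjusted p = 0.285, DESeq2 adjusted p = 5.76e-05, or 0.00391 with WT 2 and WT 4 summed, and it was called in each DESeq2 setting. Xpo7 (chr14:70662126-70770864), a nuclear exportin active in erythroid maturation, was at 29.1, 32.4, 21.1 and 32.7 CPM in the KO libraries, and 81.3, 91.96, 38.6 and 96.1 in WT. For Xpo7 the log2 fold change was -1.42, SE 0.29, with edgeR adjusted p = 0.285, DESeq2 adjusted p = 0.00132, or 0.045 with WT 2 and WT 4 summed, range 6.35e-09 to 0.9 over the alternatives. None of these 3 genes overlapped between the groups, which the rule that named Gpx3 and Xpo7 required.

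Copg2 (chr6:30747554-30896815), a coat protein of Golgi vesicles, was at 13.1, 12.6, 14.9 and 15.5 CPM in the KO libraries, and 33.6, 32.9, 34.3 and 30.6 in WT, with little spread within either group. For Copg2 the log2 fold change was -1.23, SE 0.23, with edgeR adjusted p = 0.285, DESeq2 adjusted p = 0.000271, or 0.0163 with WT 2 and WT 4 summed. Fam171a1 (chr2:3114224-3227806) was at 2.11, 1.91, 1.99 and 3.28 CPM in the KO libraries, and 14.7, 12.8, 6.24 and 15.7 in WT. For Fam171a1 the log2 fold change was -2.41, SE 0.48, with edgeR adjusted p = 0.285, DESeq2 adjusted p = 0.000431, or 0.0382 with WT 2 and WT 4 summed, range 5.13e-06 to 1 over the alternatives. Trim58 (chr11:58640465-58652404), a ubiquitin ligase of maturing erythroid cells, was at 9.05, 7.69, 8.49 and 8.25 CPM in the KO libraries, and 19.4, 19.4, 19.2 and 29.1 in WT. For Trim58 the log2 fold change was -1.38, SE 0.29, with edgeR adjusted p = 0.298, DESeq2 adjusted p = 0.00336, or 0.0617 with WT 2 and WT 4 summed, range 0.0021 to 1 over the alternatives. Zdhhc18, a palmitoyltransferase, was at 4.58, 4.705, 7.43 and 9.58 CPM in the KO libraries, and 32.3, 17.1, 16.9 and 20.6 in WT. For Zdhhc18 the log2 fold change was -1.72, SE 0.38, with edgeR adjusted p = 0.298, DESeq2 adjusted p = 0.00457, or 0.0525 with WT 2 and WT 4 summed, range 0.000886 to 0.9 over the alternatives. Taf4b, Prdm15, Fam160a2, Usp45 and Peak1 were also called lower by DESeq2, with log2 fold changes of -2.07, -1.53, -1.52, -1.46 and -1.38. All 5 lay lower in every KO library than in every WT library, which the rule that named them required. None of them was called by DESeq2 with WT 2 and WT 4 summed.

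A few genes of low level were read mainly in 1 group. Prf1 (chr10:61297751-61304684), perforin of cytotoxic lymphocytes, had no read in any KO library and 331 reads over the 4 WT libraries, at 2.21, 2.12, 1.79 and 2.33 CPM. Against the limit of 3 reads over the KO group it was at least 106-fold lower in KO (edgeR adjusted p = 0.285, DESeq2 adjusted p = 9.16e-05). This limit covers counting error only. Gzmb, the granzyme that acts with perforin, was at 4.34, 10.4, 51.4 and 31.9 CPM in the KO libraries, and 1.65, 7.197, 57.6 and 5.83 in WT and followed no genotype. Plpp1, a lipid phosphatase, was at 0.121, 0.0821, 0 and 0.0607 CPM in the KO libraries, and 3.03, 5.26, 3.87 and 4.93 in WT. For Plpp1 the log2 fold change was -5.98, SE 1.15, with edgeR adjusted p = 0.285, DESeq2 adjusted p = 5.23e-06, or 0.00115 with WT 2 and WT 4 summed. Epha2, an ephrin receptor, was at 2.41, 10.6, 2.22 and 7.22 CPM in the KO libraries, and 0.245, 0.0208, 0 and 0 in WT, so it was nearly absent from WT. For Epha2 the log2 fold change was 6.38, SE 1.45, with edgeR adjusted p = 0.305, DESeq2 adjusted p = 6.21e-05, or 0.00104 with WT 2 and WT 4 summed. Prf1, Plpp1 and Epha2 were called in each DESeq2 setting.

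Inflammatory and mature myeloid genes gave single calls. Ccl3 (chr11:83647843-83649378), the chemokine MIP-1 alpha, was at 103, 80.04, 137 and 95.1 CPM in the KO libraries, and 40.1, 52.4, 72.9 and 50.96 in WT, without overlap. For Ccl3 the log2 fold change was 0.94, SE 0.23, with edgeR adjusted p = 0.305, DESeq2 adjusted p = 0.0233, or 0.141 with WT 2 and WT 4 summed, range 0.000521 to 1 over the alternatives. Lcn2 (chr2:32384637-32387739), the siderophore-binding lipocalin of neutrophil granules, was at 9.83, 5.31, 7.83 and 11.04 CPM in the KO libraries, and 2.14, 0.957, 2.48 and 0.857 in WT. For Lcn2 the log2 fold change was 2.40, SE 0.61, with edgeR adjusted p = 0.305, DESeq2 adjusted p = 0.0101, or 0.0971 with WT 2 and WT 4 summed, range 0.000966 to 1 over the alternatives. Il4 (chr11:53612460-53618665), made by basophils and mast cells among other cells, was at 7.84, 3.01, 1.55 and 1.94 CPM in the KO libraries, and 0, 0.0416, 0.545 and 0.238 in WT. For Il4 the log2 fold change was 4.11, SE 1.33, with edgeR adjusted p = 0.425, DESeq2 adjusted p = 0.0406, or 0.172 with WT 2 and WT 4 summed, range 0.00123 to 1 over the alternatives. Ccl9, a chemokine of myeloid cells, was at 552, 293, 490.4 and 524 CPM in the KO libraries, and 149.9, 65.6, 527 and 63.6 in WT, where WT 3 lay with the KO libraries, and edgeR called it without WT 3 (log2 fold change 2.33, edgeR adjusted p = 0.0475). Of 26 tested NF-kB and inflammatory genes, 1 lay higher and 1 lower without overlap, which is near the 2.94% and 2.79% of all genes, and the median was 0.27. Of the 13 primary granule genes 12 and of the 21 monocytic genes 16 had positive log2 fold changes, none without overlap, with medians of 0.30 and 0.35, or 0.09 and 0.06 with WT 2 and WT 4 summed. The summed monocytic level was 1849, 1217, 2773 and 2951 CPM over the KO libraries, and 914, 891, 4019 and 958 in WT, so that it was again highest in WT 3.

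Interferon-stimulated genes and nucleic acid sensors, of interest because Sting induces interferon, gave no call by edgeR or DESeq2. Of 51 tested interferon-stimulated genes, 22 had a positive log2 fold change (6705 of 13205 over all genes) and none lay apart in either direction. Over all genes, 2.94% lay apart with KO higher and 2.79% with KO lower, and DESeq2 called 1.21%. Such shares give few genes in a list of this size, so the lack of any cannot be read as a result about the list. The median was -0.10, or 0.01 with a term for sex and 0.00054 with WT 2 and WT 4 summed. By edgeR's unadjusted p under 0.05, 1 gene of the list was higher and 2 were lower (4.67% and 4.38% of all genes). Voom called 1 higher (2.71% of all genes). Ifitm1, an abundant member, was at 614, 1513, 257 and 654 CPM in the KO libraries, and 985, 1109, 496 and 994 in WT, with KO 2 highest and KO 3 lowest. Lgals9 was at 1154, 1076, 850.1 and 918 CPM in the KO libraries, and 994, 832, 662 and 931 in WT. Irf7, the transcription factor that amplifies the interferon response, was at 7.18, 6.35, 7.03 and 7.55 CPM in the KO libraries, and 8.45, 9.21, 5.93 and 12.8 in WT. For Irf7 the log2 fold change was -0.37, SE 0.40, with edgeR adjusted p = 0.846, DESeq2 adjusted p = 0.835. Of the 20 tested sensing genes 11 had positive and 9 other log2 fold changes (median 0.0069, or -0.04 with a term for sex), with 0 at an unadjusted p under 0.05 and 0 by edgeR, DESeq2 or voom. Mb21d1, the DNA sensor cGAS, was at 19.4, 15.6, 12.9 and 27.8 CPM in the KO libraries, and 12.9, 9.65, 14.2 and 10.4 in WT. These overlaps do not show that the genes were equal: for Irf7 the SE was 0.40 on the log2 scale.

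**Figure D5:**
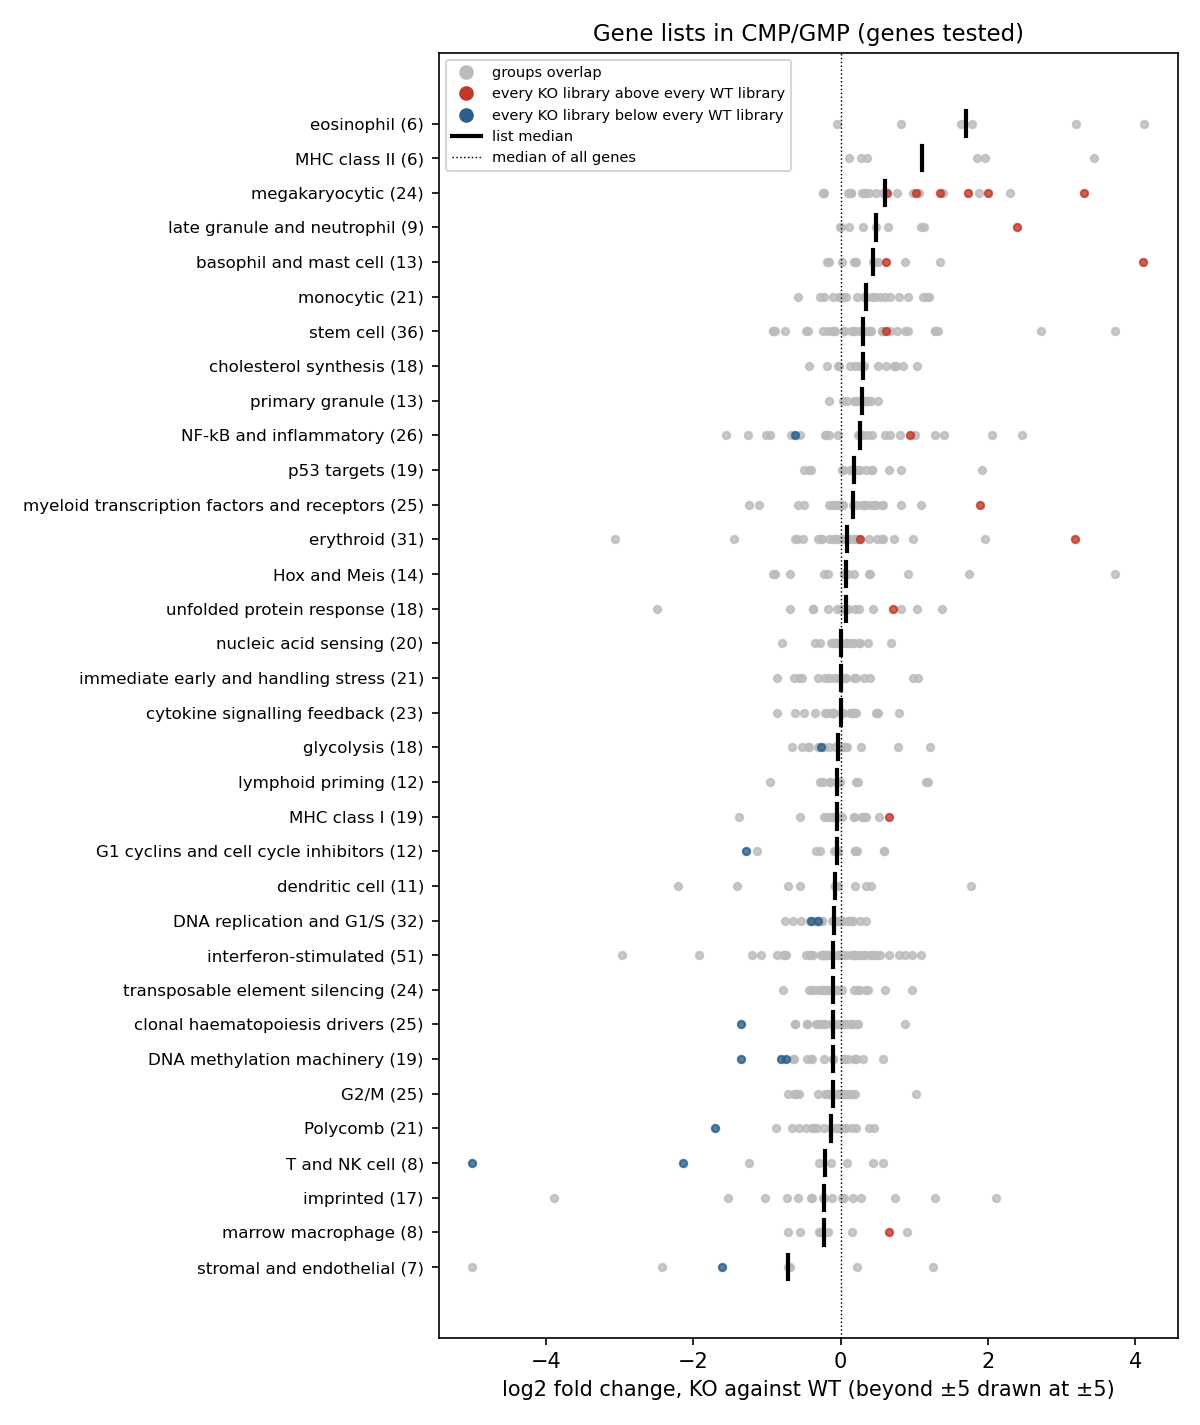
Log2 fold change (KO against WT, edgeR) of each tested gene in the 34 lists with 3 or more tested genes, ordered by their median (black bar), with the number of genes tested in brackets and values beyond 5 in size drawn at 5. Red and blue points are genes whose groups do not overlap. The megakaryocytic list holds 6 red points, and the DNA methylation list 3 blue ones, which include the targeted gene Dnmt3a.

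DNA replication genes had a lower summed level in every KO library. Of 32 tested G1/S genes, 10 had a positive log2 fold change (6705 of 13205 over all genes), and 2, Mcm6 and Rrm1, lay lower without overlap (2.79% over all genes). Mcm6, a subunit of the replicative helicase, was at 813, 842, 834 and 868 CPM in the KO libraries, and 904, 1053, 1011 and 1172 in WT. For Mcm6 the log2 fold change was -0.30, SE 0.12, with edgeR adjusted p = 0.499, DESeq2 adjusted p = 0.288. Rrm1, a subunit of ribonucleotide reductase, was at 349.7, 427, 326 and 337 CPM in the KO libraries, and 429.8, 427, 478 and 570.1 in WT. For Rrm1 the log2 fold change was -0.40, SE 0.15, with edgeR adjusted p = 0.468, DESeq2 adjusted p = 0.222. Summed, the list was at 6138 to 6674 CPM in KO and 6882 to 7943 CPM in WT, without overlap, and the median log2 fold change was -0.09. Of 25 G2/M genes, 8 were positive (median -0.11, or 0.05 with a term for sex). Top2a, the topoisomerase of dividing cells, was at 292, 425, 317 and 237 CPM in the KO libraries, and 599, 543, 327 and 614 in WT. For Top2a the log2 fold change was -0.71, SE 0.23, with edgeR adjusted p = 0.419, DESeq2 adjusted p = 0.0912. The glycolysis list was also lower in sum, at 8308 to 8479 CPM in KO and 8827 to 10709 CPM in WT. Its median log2 fold change was -0.04, with 7 of 18 positive, and 1 gene, Pgk1, lay lower without overlap (2.79% over all genes). Ldha, lactate dehydrogenase, an abundant member, was at 2047, 2697, 1887 and 1961 CPM in the KO libraries, and 3619, 3453, 1953 and 3329 in WT, where WT 3 lay within the KO range.

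Markers of other cells that a progenitor sort can carry were read beside these results. Cxcl12, the chemokine of marrow stroma, was at 0.332, 2.43, 0 and 0.121 CPM in the KO libraries, and 85.4, 60.6, 0 and 65.6 in WT. It was thus high in the 3 WT libraries with Y transcripts and at 0 in WT 3. Pdgfrb (chr18:61045127-61085067), a receptor of perivascular stroma, was at 7.24, 22.7, 10.1 and 3.76 CPM in the KO libraries, and 36.1, 28.4, 31.3 and 37.8 in WT. For Pdgfrb the log2 fold change was -1.61, SE 0.46, with edgeR adjusted p = 0.368, DESeq2 adjusted p = 0.0424, or 0.215 with WT 2 and WT 4 summed, range 2.90e-05 to 1 over the alternatives. The summed level of the stromal and endothelial list, with 20 genes of which 7 were tested, was 91.4 to 138 CPM in KO and 162 to 206 CPM in WT. The marrow macrophage list, with 19 genes of which 8 were tested, was summed at 852 to 1219.7 CPM in KO and 516 to 811 CPM in WT, also without overlap, while its median log2 fold change was -0.22 and 3 of the 8 were positive. Most of this sum in every library was 1 gene, Apoe, which is made by macrophages and by other myeloid cells. Apoe was at 1152, 794, 768 and 760.0 CPM in the KO libraries, and 753, 459.8, 462 and 519 in WT. The MHC class II genes had 6 positive log2 fold changes of 6 with a median of 1.11, but none lay apart: Cd74, the invariant chain, was at 74.7, 0.492, 0.974 and 0.516 CPM in the KO libraries, and 1.103, 9.88, 0.182 and 9.95 in WT, so KO 1 alone was high. Of the eosinophil genes 5 of 6 were positive (median 1.71), with Cebpe at 43.1, 9.93, 40.6 and 54.4 CPM in the KO libraries, and 12.6, 6.34, 54.3 and 11.002 in WT. The part of these cells in the other results was not tested.

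The remaining lists held at most 1 gene without overlap in each direction, except that 2 of 13 basophil and mast cell genes lay higher (2.94% of all genes) and 2 of 8 T and NK cell genes lower (2.79% of all genes). Median log2 fold changes were -0.04 for MHC class I, -0.04 for lymphoid priming, -0.07 for dendritic cell, 0.18 for p53 target and -0.22 for imprinted genes. They were -0.10 for silencers of transposable elements, -0.13 for Polycomb genes, -0.11 for drivers of clonal haematopoiesis and 0.08 for Hox and Meis genes. Those of the unfolded protein response (0.07), of immediate early genes and handling stress (0.0041), of cytokine feedback (−0.00058) and of G1 cyclins (-0.05) were also close to 0. T and NK cell genes had a median of -0.21, and Prf1 was 1 of the 2. Cholesterol synthesis genes were at 0.30 with 14 of 18 positive, basophil and mast cell genes at 0.44 with 11 of 13, and late granule genes at 0.48 with 8 of 9. Of the 27 germline genes that are known to be silenced by methylation, 0 passed the filter on low counts. DESeq2 called members of 10 of the 35 lists with tested genes, and edgeR of 0.

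Transposable elements (TE), many of which are silenced by DNA methylation, were read as counts per subfamily. TE reads per 100 gene reads were 2.57, 3.005, 4.08 and 3.19 in KO and 3.85, 3.79, 3.34 and 3.94 in WT. KO 3 held the highest and the other KO libraries the 3 lowest values. The means were 3.21 ± 0.634 and 3.73 ± 0.269 (n = 4 each), a KO minus WT difference of −0.52 with a two-sided exact permutation p of 0.2 (0.429 adjusted over 10 TE measures). IAP elements, retroviruses that methylation represses in the mouse embryo, were at 0.0499 ± 0.0154 and 0.0492 ± 0.00723 per 100 gene reads (exact permutation p = 1). LINE-1 elements were at 0.520 ± 0.0903 and 0.604 ± 0.0445 (exact permutation p = 0.143).

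No TE subfamily of 893 tested was called by edgeR (0%), with 61 at an unadjusted p under 0.05, of which 8 were higher and 53 lower in KO. DESeq2 called 1 (0.112%), LTR33B, at 0, 0, 0.0847 and 0 CPM in the KO libraries, and 0.9496, 0.666, 0.303 and 1.17 in WT (DESeq2 adjusted p = 0.0431, edgeR adjusted p = 0.307). Groups lay apart with KO higher in 4 subfamilies (0.448%) and with KO lower in 30 (3.36%). The direction depended on the scale: with library sizes taken from the TE counts themselves, 38 were higher and 25 lower at an unadjusted p under 0.05. Without KO 3 the edgeR count at that threshold was 217, of which 215 were lower. RLTR12E, a long terminal repeat of the ERVK family, was at 10.3, 5.99, 4.85 and 3.28 CPM in the KO libraries, and 14.4, 12.1, 12.5 and 13.7 in WT (edgeR adjusted p = 0.307, DESeq2 adjusted p = 0.0526). MLT1G1, Tigger14a and MLT1E, the others of the 5 with the lowest p, had log2 fold changes of -1.40, -1.51 and -1.41 (each edgeR adjusted p = 0.307).

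By position, DESeq2 calls were spread over the autosomes and the X chromosome, from 0.573% of the tested genes of chromosome 17 to 2.26% of those of chromosome 13. Chromosome 2 held the most, 19 of 997. On the X chromosome 6 of 422 genes were called, and removing the genes of chromosomes X and Y left the edgeR count at 0. A comparison of promoter CpG counts between calls is void and not reported, because only 77.2% of the tested genes had an entry in the promoter table.

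The difference between populations was tested in 1 edgeR fit over LT-HSC, CMP/GMP and MEP. CPM of LT-HSC, MEP and c-kit+ libraries are scaled here to total counts only, without the TMM factors used for CMP/GMP. The Dnmt3a effect in CMP/GMP differed from that in LT-HSC for 1 of 16136 genes (0.0062%) and from that in MEP for 0 (0%), where 2009 genes had an unadjusted p under 0.05 and no other tool was run. The 1 gene was Prss50, a serine protease. It was at 1.87, 11.4, 22.7 and 22.2 CPM in the KO libraries, and 1.23, 6.86, 13.8 and 6.72 in WT, with overlap between the groups. In LT-HSC it was at 0 in all 4 KO libraries, and at 0.0996, 29.5, 32.9 and 12.3 CPM in WT (edgeR adjusted p of the difference 0.0316). The call was absent when WT 2 and WT 4 of CMP/GMP were summed, and without any 1 of the 8 CMP/GMP libraries other than KO 1. Dnmt3a itself was at 41.7, 71.6, 119 and 50.8 CPM in LT-HSC KO and at 229.5, 77.2, 109 and 104 CPM in LT-HSC WT, where the groups overlapped and 1 WT library was high. The MEP values were 10.8, 41.9, 1.64 and 1.16 CPM for the KO libraries and 49.5, 32.1 and 29.4 CPM in WT, where 1 KO library lay within the WT range. The c-kit+ values were 48.3 and 48.9 CPM for KO against 91.1 and 79.9 for WT, without overlap. Pf4 was at 172 to 398 CPM in the 4 MEP KO libraries and at 42.4 to 70.1 CPM in the 3 MEP WT libraries, also without overlap. KO 3 and KO 4 of MEP were close in level, at 172 and 180 CPM for Pf4 and at 164 and 169 CPM for Chchd10. They were entered as separate libraries in the population fit, and whether they are independent was not tested. In LT-HSC, Pf4 was at 98.002, 78.999, 88.9 and 258 CPM in KO and at 2191, 151, 119 and 134 CPM in WT, so that a single WT library stood far above the rest and the groups overlapped. The same library, LT-HSC WT 1, held the high Dnmt3a value and had Mpo at 1378 CPM, against 3.87, 0.913 and 2.14 in the other WT libraries. Mpo was at 12.6, 175, 44.9 and 83.6 CPM in LT-HSC KO. WT 1 of LT-HSC was kept in the population fit. The population difference was not called for Pf4 (edgeR adjusted p = 0.506 against LT-HSC and 0.678 against MEP).

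The c-kit+ fraction contains these progenitors and was sequenced as separate libraries, 2 of each genotype in this contrast. The fit ran over all 9 c-kit+ libraries, so the Sting knockout and Dnmt3a/Sting double knockout libraries also entered its estimate of spread. For KO against WT, edgeR called 91 of 16026 genes (0.568%), and 70 of these were also tested in CMP/GMP. Of the 70, 38 had the same sign in CMP/GMP, 4 lay apart in that direction and 6 had an unadjusted p under 0.05 in it. Over all genes of CMP/GMP, 2.94% lay apart with KO higher and 2.79% with KO lower, and 4.67% and 4.38% had such a p. The 160 DESeq2 calls of CMP/GMP shared 3 genes with the 91, which is 1.88% of the former and 3.30% of the latter, and 2 of the 3, Dnmt3a and Rps4l, had the same sign while Fam160a2 did not. Rps4l (chr6:148354656-148355596) encodes a ribosomal protein closely related to Rps4x, so its count is uncertain. It was at 42.3, 19.8, 14.1 and 24.02 CPM in the KO libraries, and 10.3, 7.26, 9.08 and 8.79 in WT (log2 fold change 1.5, DESeq2 adjusted p = 0.0206) and higher in c-kit+ cells as well (log2 fold change 2.19, edgeR adjusted p = 0.0087).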

How the data were processed

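Per the labels' protocols, polyadenylated RNA of sorted marrow cells was made into libraries by a modified SMART-Seq2 method. The authors deposited raw read counts per gene and per transposable element subfamily. Per the submitters' processing notes, Trim Galore 0.6.7, HISAT2, featureCounts 2.0.1, DESeq2 1.34.0 and the mm10 build were used; the roles of the tools, the annotation, strand setting and treatment of multiply mapped reads are not stated, and the last bears on TE and paralog counts. Of the columns of each deposited count table, 8 were not used.

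The 4 KO and 4 WT libraries were compared with edgeR 4.0.16 (filterByExpr with a minimum count of 10 and a minimum total of 15, TMM, quasi-likelihood test, Benjamini-Hochberg adjusted p under 0.05) in R 4.3.3, with TE counts tested on the gene library sizes. DESeq2 1.42.0 and limma-voom (limma 3.58.1) with library weights were alternatives, as were RLE factors, no filter, a replicate block, a term for sex, WT 2 and WT 4 summed, no genes of X and Y, 1 fit over 3 populations and leaving out each library. DESeq2 with libraries summed, with sex or with a library left out was added after seeing the data. Single values were tested with two-sided exact permutation tests. On simulated counts of this comparison (12746 genes), edgeR called 19 of 100 genes changed 2-fold and 80 of 100 changed 4-fold, with 8 false calls. Genes were drawn independently, so the simulation holds no near-identical libraries and no sex or length differences between libraries.

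The members and gene lists were chosen with earlier results of these data known. The rule named up to 12 higher and 12 lower called genes of at least 5 CPM whose groups did not overlap, up to 4 called genes per list, and the 2 most abundant of lists without a call. It was applied to the DESeq2 calls, after seeing that edgeR made none, and other named genes were picked after their values were seen. Not every gene so chosen is reported here. Replicate numbers did not pair the libraries. With 33.2 to 47.7 M gene reads per library, floors and levels of low genes cover counting error only. Symbols were matched to RefSeq (GRCm38.p6) for 32501 of 35976 genes directly and 1015 by older names, and coordinates are of that build. Figures were drawn with matplotlib 3.10.9.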

Additional observations from a re-analysis of the deposited data

Results flagged for a closer look

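Among 72 groups of 4 libraries tested for a single library far from the other 3, 9 had one. The chance rate of about 1 in 20 holds for normal and independent values. CPM of chosen genes in shared libraries do not meet this, so 9 of 72 is not set against that rate. Not every named gene was tested: Elane, for which WT 3 stood far above the other WT libraries, is not among the 9. Libraries of the KO group stood apart for 4 genes. KO 4 was high for Ndnl2 at 85.6 CPM, for Gfer at 54.5 CPM and for Fam171a1 at 3.28 CPM, and KO 3 was high for Gpx3 at 10.03 CPM. Libraries of the WT group stood apart for 5 genes. WT 3 was high for Spi1 at 158 CPM and for Peak1 at 24.7 CPM, WT 1 was high for Taf4b at 37.7 CPM and for Lmo2 at 161 CPM, and WT 4 was high for Trim58 at 29.1 CPM.

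The Dnmt3a effect on Prss50 differed between populations by 13.13 on the log2 scale (CMP/GMP minus LT-HSC). This value depends on the prior count, since Prss50 had no read in the 4 LT-HSC KO libraries.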

How the results depend on the processing

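The edgeR count of 0 genes held with RLE factors, without the filter, with a term for sex, with WT 2 and WT 4 summed, without X and Y genes and in 1 fit over 3 populations, and was 0 to 12 with a library left out. DESeq2 called 160 and voom 475. DESeq2 called 34 with WT 2 and WT 4 summed, 266 with a term for sex, and 29 to 628 with a library left out: 113, 199, 437 and 158 without KO 1 to KO 4, and 266, 35, 628 and 29 without WT 1 to WT 4. The cause was not tested. TE calls were 0, or 1 with DESeq2. The CMP/GMP minus LT-HSC count of 1 was 0 with WT 2 and WT 4 summed and 0 to 1 with a CMP/GMP library left out, and the CMP/GMP minus MEP count of 0 was 2 with RLE factors, 2 without the filter and 0 to 1 with a library left out. Dnmt3a passed the threshold with DESeq2 (log2 fold change −1.37), with voom (−1.63), with DESeq2 and sex (−1.56) and with DESeq2 without KO 1 to KO 4 (−1.22, −1.22, −1.52 and −1.55), WT 1 (−1.42) or WT 3 (−1.47). It did not without WT 2 or WT 4. Log2 CPM of same-numbered KO and WT libraries correlated with a Pearson r of 0.906, 0.935, 0.931 and 0.858. WT 1 and WT 4 were closer to KO 2, at 0.919 and 0.923, so the numbers were not used as pairs. With the replicate block edgeR called 0 genes and 0 TE subfamilies, 1 gene for CMP/GMP minus LT-HSC and 0 for CMP/GMP minus MEP. Dnmt3a kept its sign in every alternative. Medians of the interferon-stimulated, sensing, G2/M, B cell and cytokine feedback lists changed sign with a term for sex, the interferon-stimulated and cytokine ones also with WT 2 and WT 4 summed, and the TE subfamilies at an unadjusted p under 0.05 went from 8 higher and 53 lower to 38 and 25 with TE library sizes. On simulated counts, which lack the library differences described above, edgeR recovered few 2-fold changes. The absence of a call therefore does not show that a gene was equal.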
